A study of Arabidopsis thaliana with 12 samples.

Results

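Changes in gene expression between 30 and 60 min of light were followed in flu/ex1, an Arabidopsis thaliana mutant that lacks both FLU and EX1. The comparison rests on 4 of the 12 RNA-seq libraries of the study, 2 at 30 min and 2 at 60 min. The other libraries are flu/ex1 before light (0 min, 2 libraries) and flu/ex1/ydl1, which carries ydl1 beside both mutations, at 0, 30 and 60 min (6 libraries). Plants were grown on soil in unbroken light to an age of 6 d, kept dark for 4 h and then collected before or after the return to light. The labels give no alleles, and no library of the wild type or of flu alone was analysed here, so each group shares the loss of FLU and EX1. Libraries were assigned to times by the code in the deposited file's name, because the labels give another time for 8 of the 12 libraries. Of the 4 libraries compared, 60 min replicate 1 has 60 min in both. By its label, 60 min replicate 3 is a 30 min library, 30 min replicate 2 is a 60 min library and 30 min replicate 3 is a 0 min library. Each of the 12 file-name codes also occurs as the title of a sample of the same genotype. Values are given in the order replicate 2 then 3 at 0 and 30 min, and replicate 1 then 3 at 60 min.

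FLU restrains tetrapyrrole synthesis in the dark. In its absence protochlorophyllide accumulates at night and, once lit, passes energy to oxygen, so that singlet oxygen forms inside plastids. EX1 and its relative EX2 are plastid proteins needed for most of the signalling from this oxidant to the nucleus. The return to light also acts through photoreceptors and through photosynthesis: it brings genes of light signalling and photoprotection, then genes for flavonoids, which screen light and quench oxidants, and it ends the sugar shortage of the night. Genes that respond at once often fade within the hour while enzymes of such pathways build up.

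The total count was 9283024 and 10124361 at 30 min and 11533190 and 11591060 at 60 min. Plastid loci took 65.3% and 67.7% of it at 30 min and 63.3% in each library at 60 min. That left 3193480 and 3233309 counts on nuclear loci at 30 min against 4192127 and 4209672 at 60 min. The 60 min libraries stood apart from each other: over the 500 most variable genes they differed by a root mean square of 1.26 log2 units. Replicate 3 at 60 min differed by 0.863 and 0.976 from the 30 min libraries, which differed from each other by 0.797, and replicate 1 differed from them by 1.04 and 1.30. For gene lists that turn on 1 library, the median is therefore also given without it. Among root and seed markers, 3 of 5 root markers and 3 of 3 seed storage genes had too few counts to be tested. These had at most 7 counts in a library. The remaining root markers, PYK10 (AT3G09260) and NRT2.1 (AT1G08090), were tested, so root markers were not all absent. PYK10 had 520 and 473 counts at 30 min and 882 and 752 counts at 60 min. NRT2.1 had 12 and 25 counts at 30 min and 56 and 24 counts at 60 min. In RNA from whole plants, fewer cells of a type and less RNA per cell cannot be told apart, and the labels leave unsaid if replicates were grown or harvested apart. Each p therefore reflects sample-to-sample spread that may be technical.

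FLU (AT3G14110) had 56.4 and 53.0 CPM, TMM-scaled counts relative to library size, at 30 min and 47.5 and 48.7 CPM at 60 min. EX1 (AT4G33630) had 4.41 and 4.58 CPM at 30 min and 4.86 and 4.57 CPM at 60 min. EX2 (AT1G27510) had 8.42 and 8.27 CPM at 30 min and 11.2 and 10.7 CPM at 60 min. At 0 min FLU had 53.3 and 45.2 CPM, EX1 2.91 and 5.22 CPM and EX2 10.9 and 7.98 CPM. Both mutated genes thus gave reads in all 6 flu/ex1 libraries, and the 3 genes gave adjusted p-values of 0.851, 0.970 and 0.706 in the late step. ELIP1, an early light-inducible gene, can set dark libraries apart from lit ones. It cannot decide between 30 and 60 min, since its change in that step is itself a value read here. ELIP1 had 15.9 and 20.7 CPM at 0 min, 78.3 and 88.4 CPM at 30 min and 150.1 and 124 CPM at 60 min. By the labels, the same values would be 15.9 and 88.4 CPM at 0 min, 124 and 20.7 CPM at 30 min and 78.3 and 150.1 CPM at 60 min.

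No gene passed the test between 30 and 60 min. Of 17879 genes tested, 0 (0%) had an adjusted p under 0.05 in edgeR's quasi-likelihood test, and the smallest was 0.0529. An unadjusted p under 0.05 was found for 1360 genes, of which 684 stood higher at 60 min (3.83% of all tested) and 676 lower (3.78%). Without any test, the libraries of the 2 times did not overlap for 3954 genes that stood higher at 60 min (22.1%) and 4056 that stood lower (22.7%). DESeq2, run as an alternative, gave an adjusted p for only 4240 genes and called 24 of them, 11 higher and 13 lower. The statements below are therefore values with their errors. In each gene list, "higher" and "lower" count members at an unadjusted p under 0.05, to be read against these 3.83% and 3.78% of all genes. The lists were chosen with earlier results of these data known, so such counts are no independent test.

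The 10 genes with the smallest p hold 5 that stood higher and 5 that stood lower at 60 min. ATCTH (AT2G25900), an RNA-binding tandem zinc finger gene, had 2.84 and 2.29 CPM at 30 min and 13.2 and 11.0 CPM at 60 min, a log2 fold change of 2.23 ± 0.33 (SE, edgeR adjusted p = 0.0529). At 0 min it had 5.54 and 9.75 CPM, so both 30 min libraries lay below all others. The same dip at 30 min was seen in 3 more of the 10. AT1G23390, a kelch F-box gene whose protein is known to send chalcone synthase to degradation, had 46.4 and 59.7 CPM at 0 min, 19.1 and 13.3 CPM at 30 min and 37.4 and 60.5 CPM at 60 min. Its log2 fold change in the late step was 1.60 ± 0.29 (SE, edgeR adjusted p = 0.189). FUM2 (AT5G50950), the cytosolic fumarase, had 7.20 and 8.08, then 2.64 and 3.49, then 7.70 and 7.66 CPM at the 3 times, with a late log2 fold change of 1.32 ± 0.27 (SE, edgeR adjusted p = 0.311). TPS8 (AT1G70290), of the trehalose phosphate synthase family, had 13.8 and 20.7, then 7.74 and 5.98, then 17.42 and 24.7 CPM, with a late log2 fold change of 1.62 ± 0.33 (SE, edgeR adjusted p = 0.287). Between 0 and 30 min ATCTH, AT1G23390 and FUM2 had fallen (log2 fold changes of -1.59, -1.71 and -1.32, edgeR adjusted p of 0.0389, 0.00871 and 0.0390), and TPS8 gave -1.34 with an adjusted p of 0.0895. These first-step values use the same 30 min libraries as the late step. The fifth, PAL2, is described with the flavonoid genes.

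The 5 genes that stood lower differ in their course. GASA6 (AT1G74670), of a family named for its response to gibberellin, had 54.9 and 35.4 CPM at 0 min, 46.1 and 37.2 CPM at 30 min and 10.2 and 14.4 CPM at 60 min. Its log2 fold change was -1.76 ± 0.28 (SE, edgeR adjusted p = 0.0789). AT2G33830, a dormancy- and auxin-associated gene, had 23.1 and 19.9 CPM at 0 min, 17.0 and 16.1 CPM at 30 min and 6.56 and 6.18 CPM at 60 min, a log2 fold change of -1.38 ± 0.25 (SE, edgeR adjusted p = 0.189). For both genes the 60 min libraries lay below all 4 earlier ones. From 0 to 60 min GASA6 and AT2G33830 fell (log2 fold changes of -1.88 and -1.75, edgeR adjusted p of 0.00249 and 0.00198). The other 3 had their highest level at 30 min. HB24 (AT2G18350), a zinc finger homeodomain gene, had 3.23 and 4.28 CPM at 30 min and 0.947 and 0.984 CPM at 60 min. PGSIP7 (AT2G35710), a glycogenin-like gene, had 4.60 and 6.58 CPM at 30 min and 1.33 and 1.69 CPM at 60 min. RHA2B (AT2G01150), a RING-type ubiquitin ligase gene of abscisic acid signalling, had 7.44 and 8.77 CPM at 30 min and 3.85 and 2.67 CPM at 60 min. Their log2 fold changes were -1.95 ± 0.37, -1.89 ± 0.38 and -1.31 ± 0.27 (SE, edgeR adjusted p of 0.236, 0.287 and 0.344).

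**Figure D1:**
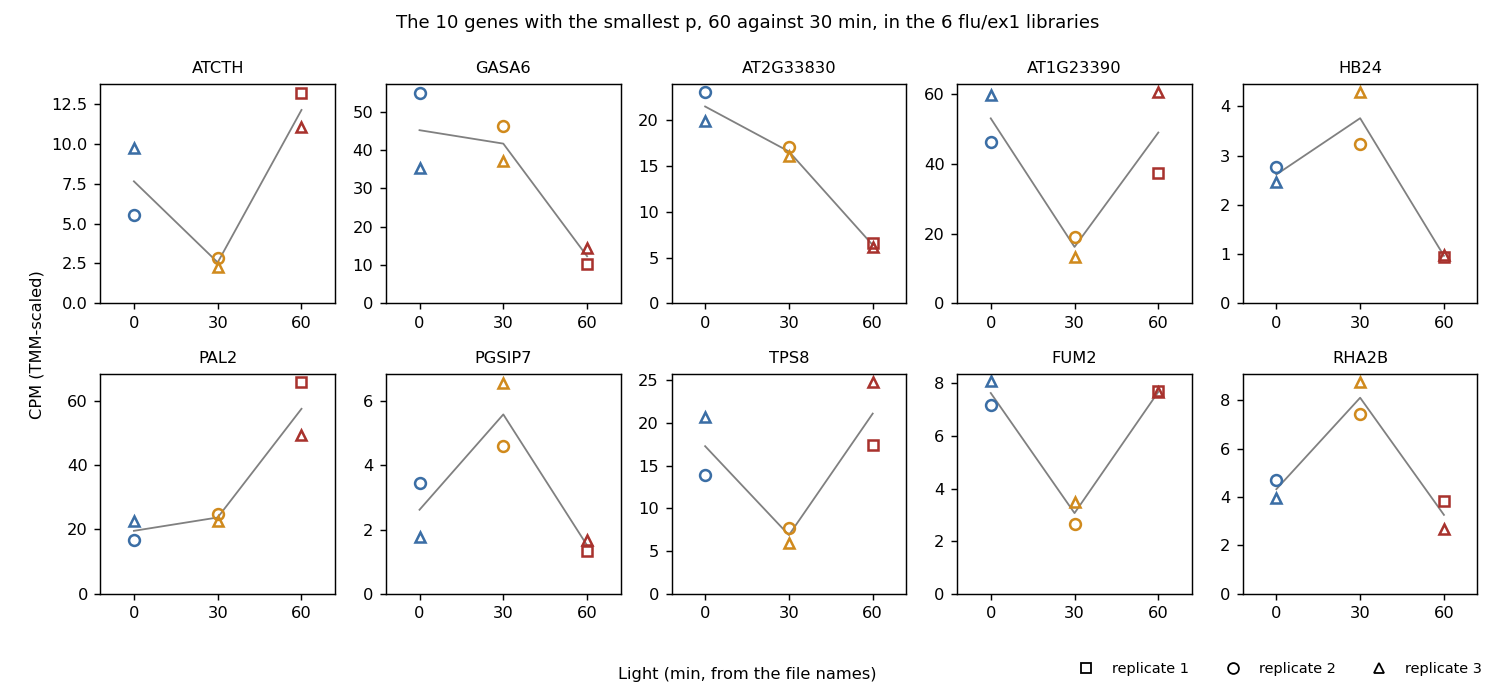
CPM (y axis, linear, from 0) against minutes of light from the file names (x axis) for the 10 genes with the smallest p, where each symbol is 1 of the 6 flu/ex1 libraries, its shape the replicate number, and the line joins the group means. ATCTH, AT1G23390, TPS8 and FUM2 are lowest at 30 min, and the 60 min libraries of GASA6 (10.2 and 14.4 CPM) and AT2G33830 (6.56 and 6.18 CPM) lie below all 4 earlier ones.

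Light signalling genes showed no common direction. Among the 20 early light genes tested, an unadjusted p under 0.05 was reached by 2 that stood higher and 2 that stood lower, beside 3.83% and 3.78% of all genes, and 16 did not reach it. Their median log2 fold change was 0.13, and that of all genes 0.0067. The list's median was -0.018 without 30 min replicate 2 and -0.0045 without 60 min replicate 1. The pair that stood higher encodes early light-inducible proteins, which bind pigments under light stress. ELIP1 (AT3G22840) gave a log2 fold change of 0.72 ± 0.26 (SE, edgeR adjusted p = 0.581) on the levels given above. ELIP2 (AT4G14690) had 20.1 and 20.9 CPM at 30 min and 36.2 and 26.8 CPM at 60 min. The pair that stood lower encodes small B-box proteins of light signalling. BBX30 (AT4G15248) had 0.692 and 0.0985 CPM at 0 min, 4.99 and 6.28 CPM at 30 min and 2.08 and 3.37 CPM at 60 min. BBX31 (AT3G21890) had 1.66 and 0.394 CPM at 0 min, 20.7 and 13.7 CPM at 30 min and 7.51 and 7.94 CPM at 60 min. All 4 genes had risen between 0 and 30 min (edgeR adjusted p of 0.00104 for ELIP1, 0.0260 for ELIP2, 0.00180 for BBX30 and 0.00106 for BBX31). So the B-box pair lay highest at 30 min and the ELIP pair highest at 60 min.

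Other B-box genes, named after their values were seen, showed both courses. BBX32 (AT3G21150), whose protein restrains photomorphogenesis, had 1.94 and 3.25 CPM at 0 min, 25.3 and 17.9 CPM at 30 min and 10.7 and 10.5 CPM at 60 min. BBX14 (AT1G68520) had 35.2 and 29.3 CPM at 0 min, 10.7 and 11.2 CPM at 30 min and 21.3 and 27.2 CPM at 60 min. BBX15 (AT1G25440) had 40.1 and 53.3 CPM at 0 min, 31.9 and 25.8 CPM at 30 min and 57.7 and 55.0 CPM at 60 min. The late log2 fold changes were -1.03 ± 0.26 for BBX32, 1.15 ± 0.30 for BBX14 and 0.97 ± 0.24 for BBX15 (SE, edgeR adjusted p = 0.499 each). HY5 (AT5G11260), the central transcription factor of the light response, had 7.06 and 4.63 CPM at 0 min, 16.9 and 18.5 CPM at 30 min and 14.1 and 12.7 CPM at 60 min. Its groups did not overlap in the late step, yet the log2 fold change of -0.40 ± 0.25 (SE) left an adjusted p of 0.698. Of 20 clock genes, 0 stood higher and 1 lower, RVE2 (AT5G37260), a MYB-like factor gene related to the clock, with 67.4 and 33.1 CPM at 30 min and 28.7 and 21.4 CPM at 60 min.

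**Figure D2:**
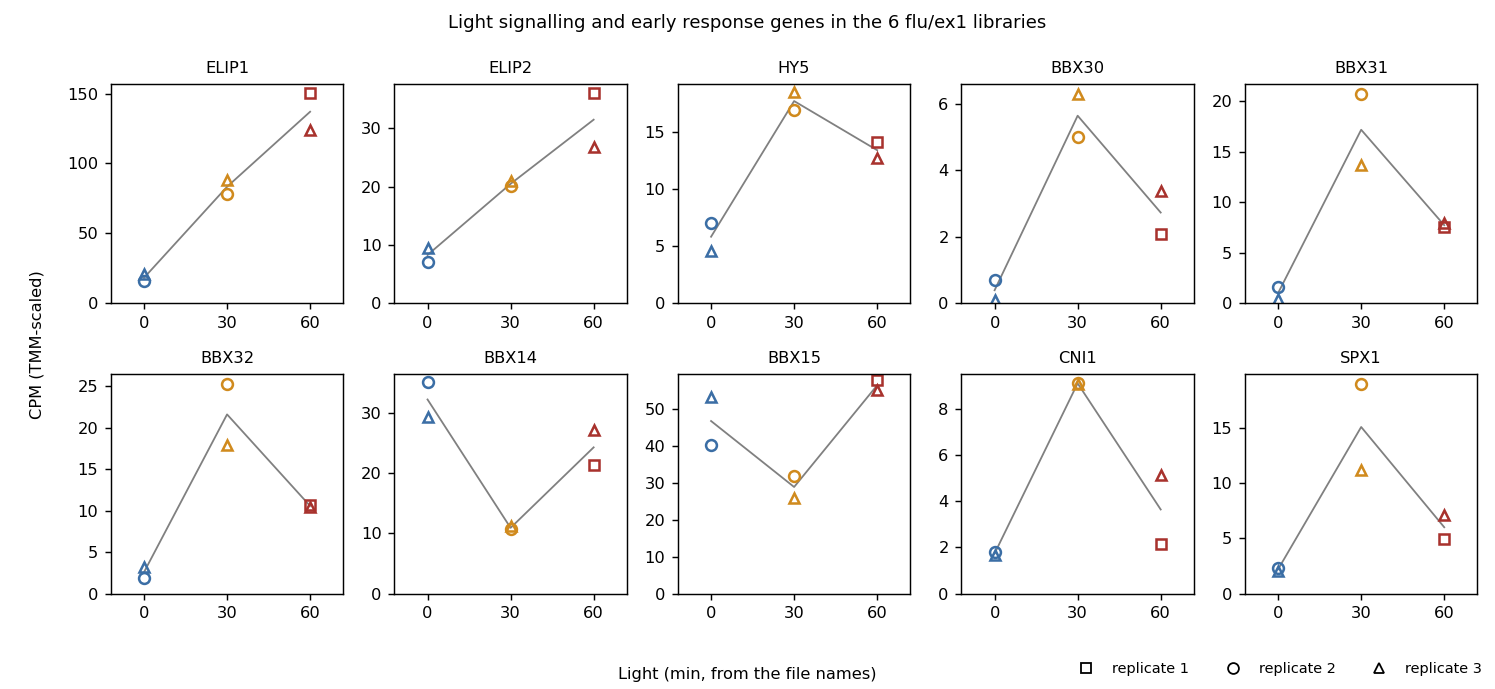
CPM (y axis, linear, from 0) against minutes of light from the file names (x axis) for light signalling genes, CNI1 and SPX1, where each symbol is 1 of the 6 flu/ex1 libraries and the line joins the group means. BBX30, BBX31, BBX32, CNI1 and SPX1 are highest at 30 min, BBX14 and BBX15 are lowest there, and ELIP1 and ELIP2 are highest at 60 min.

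Flavonoid synthesis had more members at an unadjusted p under 0.05 in 1 direction than any of the other lists. This list, too, was chosen with earlier results of these data known. Of its 17 members tested, 12 stood higher at 60 min at an unadjusted p under 0.05 and 0 lower, beside 3.83% and 3.78% of all genes. The groups did not overlap for 14 members that stood higher, beside 22.1% of all genes, and for 0 that stood lower. The median log2 fold change was 0.76. The summed level of the 17 genes was 224 and 257 CPM at 0 min, 406 and 355 CPM at 30 min and 749 and 584 CPM at 60 min, so the 3 times did not overlap. No member had an edgeR adjusted p under 0.05, and under DESeq2 PAL1 and PAL2 did. The median was 0.96 and 0.61 without replicate 2 or 3 at 30 min, and 0.63 and 0.88 without replicate 1 or 3 at 60 min.

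The entry enzymes of the phenylpropanoid pathway stood higher by about as much as the later ones. PAL2 (AT3G53260), a phenylalanine ammonia-lyase, had 16.6 and 22.6 CPM at 0 min, 24.9 and 22.6 CPM at 30 min and 65.9 and 49.3 CPM at 60 min, with a late log2 fold change of 1.28 ± 0.25 (SE, edgeR adjusted p = 0.265). PAL1 (AT2G37040) had 43.4 and 36.8 CPM at 30 min and 94.8 and 73.2 CPM at 60 min, a log2 fold change of 1.07 ± 0.25 (SE, edgeR adjusted p = 0.499). Between 0 and 30 min PAL2 had given a log2 fold change of 0.27 ± 0.25 (SE, edgeR adjusted p = 0.885). C4H (AT2G30490), the cinnamate hydroxylase, had 67.8 and 49.4 CPM at 30 min and 107 and 85.7 CPM at 60 min. 4CL3 (AT1G65060), the coumarate ligase that serves flavonoids, had 11.8 and 12.1 CPM at 30 min and 28.5 and 21.1 CPM at 60 min. Both gave positive log2 fold changes, 0.72 ± 0.25 and 1.06 ± 0.30 (SE).

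Enzymes of the flavonoid core come next in the pathway. TT4 (AT5G13930), chalcone synthase, had 59.8 and 45.0 CPM at 30 min and 123 and 75.0 CPM at 60 min. TT5 (AT3G55120), chalcone isomerase, had 15.2 and 13.1 CPM at 30 min and 22.8 and 22.1 CPM at 60 min, and CHIL (AT5G05270), its non-catalytic relative, had 28.5 and 24.8 CPM at 30 min and 47.5 and 47.1 CPM at 60 min. F3H (AT3G51240), flavanone hydroxylase, had 7.33 and 7.88 CPM at 0 min, 19.1 and 17.1 CPM at 30 min and 46.1 and 33.2 CPM at 60 min; another RNA locus overlaps it, and strand was not stated for the counts. Their late log2 fold changes were 0.92 ± 0.33 for TT4, 0.67 ± 0.24 for TT5, 0.83 ± 0.26 for CHIL and 1.13 ± 0.31 for F3H (SE, edgeR adjusted p of 0.581, 0.581, 0.558 and 0.509). From 0 to 60 min all 4 had risen (edgeR adjusted p of 0.0282, 0.00222, 0.0116 and 0.00168).

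At the branch to flavonols and anthocyanins, FLS1 (AT5G08640), flavonol synthase, had 37.0 and 29.5 CPM at 30 min and 62.3 and 50.0 CPM at 60 min. DFR (AT5G42800), the first enzyme of the anthocyanin branch, had 6.50 and 11.0 CPM at 0 min, 6.07 and 6.48 CPM at 30 min and 19.1 and 14.2 CPM at 60 min. Its log2 fold change of 1.41 ± 0.31 (SE, edgeR adjusted p = 0.430) came after a first step of -0.50 (edgeR adjusted p = 0.782). TT7 (AT5G07990), flavonoid hydroxylase, had 1.66 and 2.89 CPM at 30 min and 8.02 and 4.50 CPM at 60 min. The glycosyltransferase UGT78D1 (AT1G30530) had 24.4 and 19.4 CPM at 30 min and 40.3 and 33.9 CPM at 60 min, while UGT78D2 (AT5G17050) had 52.3 and 57.9 CPM at 30 min and 68.8 and 59.6 CPM at 60 min. The late log2 fold change was 0.76 ± 0.27 for UGT78D1 and 0.22 ± 0.28 for UGT78D2 (SE).

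The 5 members that did not reach an unadjusted p under 0.05 hold all 3 regulators tested. MYB12 (AT2G47460), a flavonol regulator, had 1.27 and 0.299 CPM at 30 min and 0.884 and 0.632 CPM at 60 min. MYB111 (AT5G49330), another flavonol regulator, had 4.99 and 9.47 CPM at 30 min and 3.28 and 5.69 CPM at 60 min. PAP1 (AT1G56650), an anthocyanin regulator, had 1.66 and 2.17 CPM at 0 min, 6.17 and 5.78 CPM at 30 min and 7.89 and 7.10 CPM at 60 min. PAP1 had risen in the first step (log2 fold change 1.62, edgeR adjusted p = 0.0450) and gave 0.33 ± 0.29 (SE) in the late step. The other members of these 5 are UGT78D2 and UGT84A1, a hydroxycinnamate glucosyltransferase gene (AT4G15480), with a log2 fold change of 0.28 ± 0.40 (SE).

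Related genes outside the list, named after their values were seen, stood on the same side. 4CL1 (AT1G51680), another coumarate ligase, had 8.71 and 7.87 CPM at 30 min and 19.8 and 15.1 CPM at 60 min. AT1G06000, a glycosyltransferase gene overlapped by another RNA locus, had 23.6 and 23.5 CPM at 30 min and 63.2 and 46.7 CPM at 60 min. RHM1 (AT1G78570), for the rhamnose that decorates flavonols, had 20.8 and 21.4 CPM at 30 min and 56.0 and 31.9 CPM at 60 min. AT3G59940 encodes KFB50, an F-box protein known to send phenylalanine ammonia-lyase to degradation, and had 16.5 and 7.67 CPM at 30 min and 26.5 and 29.9 CPM at 60 min. Thus AT3G59940 and AT1G23390, F-box genes that act against the first enzyme and chalcone synthase, both stood higher at 60 than at 30 min. From 0 to 60 min AT1G23390 gave a log2 fold change of -0.12 ± 0.28 (SE), where the flavonoid list had a median of 1.55. CYP79F1 (AT1G16410) and CYP83B1 (AT4G31500), glucosinolate synthesis genes, had 0.392 and 0.199 CPM and 12.4 and 11.7 CPM at 30 min, against 2.02 and 1.69 CPM and 27.0 and 23.0 CPM at 60 min.

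**Figure D3:**
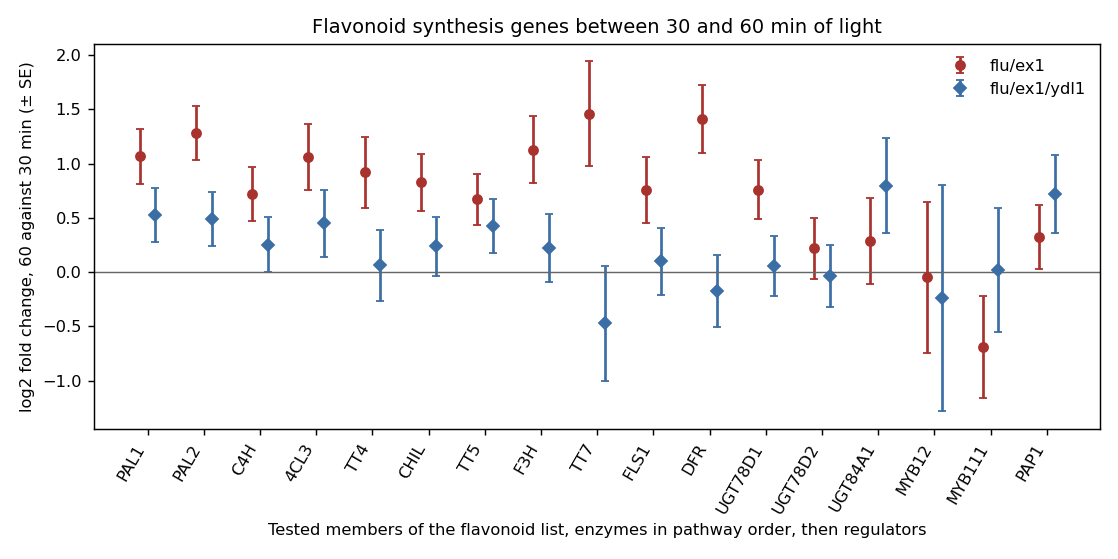
Log2 fold change of 60 against 30 min (y axis, ± SE) for the 17 tested flavonoid list members (x axis, enzymes in pathway order and then regulators) in flu/ex1 (circles) and flu/ex1/ydl1 (diamonds), with 2 libraries a group. In flu/ex1 PAL2 lies at 1.28, DFR at 1.41 and F3H at 1.13, and MYB111, at -0.69, is the lowest.

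Few genes of chlorophyll synthesis reached an unadjusted p under 0.05 between the times. Of 25 tetrapyrrole genes, an unadjusted p under 0.05 was reached by 2, both of which stood higher at 60 min, beside 3.83% of all genes. The groups did not overlap for 14 higher and 5 lower members, beside 22.1% and 22.7% of all genes. The median log2 fold change was 0.24. Without 30 min replicate 3 or 60 min replicate 1 the median was 0.15 and 0.12. PORC (AT1G03630), a protochlorophyllide reductase, had 14.3 and 11.9 CPM at 30 min and 21.3 and 17.64 CPM at 60 min. GUN5 (AT5G13630), a magnesium chelatase subunit, had 171 and 209.9 CPM at 30 min and 323 and 249.9 CPM at 60 min. PORB (AT4G27440), a further reductase, had 28.2 and 23.9 CPM at 30 min and 48.2 and 28.4 CPM at 60 min, and its unadjusted p was 0.0572. HEMA1 (AT1G58290), the glutamyl-tRNA reductase that FLU holds back, had 102 and 78.9 CPM at 30 min and 113 and 124 CPM at 60 min, a log2 fold change of 0.39 ± 0.26 (SE, edgeR adjusted p = 0.710).

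Of 20 genes of the photosystems and of carbon fixation, 1 stood higher and 1 lower, with a median log2 fold change of 0.04. PRK (AT1G32060), phosphoribulokinase, had 60.1 and 51.0 CPM at 30 min and 119 and 74.1 CPM at 60 min. LHCB7 (AT1G76570), a minor antenna gene, had 7.54 and 10.1 CPM at 30 min and 6.37 and 4.92 CPM at 60 min. Among 9 regulators of chloroplast development 0 stood higher and 1 lower, CGA1 (AT4G26150), a GATA factor, with 12.9 and 13.5 CPM at 30 min and 8.84 and 6.39 CPM at 60 min. Among 17 genes of photoprotection and antioxidants 1 stood higher and 0 lower. That was CAT2 (AT4G35090), the peroxisomal catalase of photorespiration, with 61.0 and 77.6 CPM at 0 min, 148 and 115 CPM at 30 min and 264 and 187 CPM at 60 min. Of 103 plastid-encoded genes tested, 0 had an unadjusted p under 0.05. A log2 fold change below 0 was found for 82, beside 49.3% of all genes, with a median of -0.29. Plastid loci as a whole also took a smaller share of the counts at 60 min, so these signs are not separate results.

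Growth genes went both ways. Of 13 genes of growth, shade and auxin tested, 4 stood lower at an unadjusted p under 0.05, beside 3.78% of all genes. The number lower was 2 under DESeq2, and 1 member stood higher in edgeR. The median log2 fold change was -0.41, and 5 of the 13 were above 0. EXPA8 (AT2G40610), an expansin that loosens walls, had 4.90 and 7.08 CPM at 30 min and 1.58 and 3.51 CPM at 60 min, a log2 fold change of -1.24 ± 0.35 (SE, edgeR adjusted p = 0.542). The auxin-responsive genes SAUR16 (AT4G38860) and SAUR15 (AT4G38850) had 26.7 and 34.8 CPM and 1.47 and 2.89 CPM at 30 min, against 19.4 and 21.3 CPM and 0.694 and 1.34 CPM at 60 min. PAR1 (AT2G42870), a shade-induced helix-loop-helix gene, had 3.13 and 4.68 CPM at 30 min and 2.27 and 2.39 CPM at 60 min. The member that stood higher was PIF3 (AT1G09530), a phytochrome-interacting factor that acts in darkness, with 2.21 and 2.56 CPM at 0 min, 0.881 and 1.20 CPM at 30 min and 2.59 and 1.69 CPM at 60 min. The list's median was -0.27 and -0.21 without replicate 2 or 3 at 30 min, and -0.51 and -0.11 without replicate 1 or 3 at 60 min.

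Further growth genes, outside the list and named after their values were seen, stood lower. EXPA1 (AT1G69530), an expansin, had 191 and 174 CPM at 0 min, 177 and 198 CPM at 30 min and 82.3 and 80.9 CPM at 60 min. Its log2 fold change was -1.20 ± 0.26 (SE, edgeR adjusted p = 0.404). CPD (AT5G05690), a brassinosteroid synthesis enzyme, had 45.9 and 47.0 CPM at 30 min and 23.9 and 24.6 CPM at 60 min. AGP17 (AT2G23130), an arabinogalactan protein gene, had 19.0 and 37.2 CPM at 30 min and 9.66 and 11.8 CPM at 60 min. For EXPA1 and CPD the 4 libraries before 60 min lay together and both 60 min libraries below them, and from 0 to 60 min both fell (edgeR adjusted p of 0.0335 and 0.0237).

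Of 13 genes of darkness and sugar starvation tested, 3 stood higher and 1 lower, beside 3.83% and 3.78% of all genes. The 3 encode trehalose phosphate synthase-like proteins. Beside TPS8, TPS9 (AT1G23870) had 9.96 and 11.7 CPM at 0 min, 4.70 and 4.98 CPM at 30 min and 9.66 and 7.87 CPM at 60 min. TPS11 (AT2G18700) had 3.60 and 4.43 CPM at 0 min, 2.15 and 2.79 CPM at 30 min and 4.86 and 5.20 CPM at 60 min. The list's summed level was 222 and 257 CPM at 0 min, 104 and 102 CPM at 30 min and 129 and 131 CPM at 60 min. DIN9 (AT1G67070), a phosphomannose isomerase named as dark-inducible, went the other way, with 0.692 and 1.28 CPM at 0 min, 3.33 and 3.39 CPM at 30 min and 1.64 and 1.90 CPM at 60 min. ASN1 (AT3G47340), the dark-induced asparagine synthetase, had 1.47 and 0.797 CPM at 30 min and 0.316 and 0.562 CPM at 60 min, with an unadjusted p of 0.0514.

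Most tested genes of the singlet oxygen response list had log2 fold changes below 0, and how far below differed with the 60 min library read. AATP1 and AT3G28580, also on the list, had too few counts to be tested, 0 and 3 over the 4 libraries. Of 20 tested, 4 stood lower at an unadjusted p under 0.05 and 1 higher, beside 3.78% and 3.83% of all genes. A log2 fold change below 0 was found for 17, beside 49.3% of all genes, and the list's median was -0.70. The groups did not overlap for 11 lower members, beside 22.7% of all genes. Their summed level was 211 and 79.1 CPM at 0 min, 231 and 297 CPM at 30 min and 108 and 219 CPM at 60 min. Both 60 min libraries lay below both 30 min libraries, and the 0 min libraries lay far apart. Without 60 min replicate 1 the median was -0.19, and without 60 min replicate 3 it was -1.39. Without replicate 2 or 3 at 30 min it was -0.71 and -0.58.

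CNI1 (AT5G27420), a membrane-bound ubiquitin ligase gene, had 1.80 and 1.67 CPM at 0 min, 9.11 and 9.07 CPM at 30 min and 2.15 and 5.13 CPM at 60 min. It had risen in the first step (log2 fold change 2.38, edgeR adjusted p = 0.00466) and gave -1.33 ± 0.33 (SE, edgeR adjusted p = 0.499) in the late step. ZAT11 (AT2G37430), a zinc finger factor gene, had 0.138 and 0.394 CPM at 0 min, 3.53 and 4.88 CPM at 30 min and 0.252 and 2.32 CPM at 60 min. ERF4 (AT3G15210), an ethylene response factor, had 41.8 and 16.6 CPM at 0 min, 41.1 and 60.6 CPM at 30 min and 22.8 and 30.4 CPM at 60 min. MPK3 (AT3G45640), a stress-activated kinase, had 21.1 and 25.0 CPM at 30 min and 13.3 and 15.5 CPM at 60 min. BAP1 (AT3G61190), a membrane protein widely used as a singlet oxygen marker, had 6.23 and 0.591 CPM at 0 min, 2.74 and 3.59 CPM at 30 min and 0.631 and 1.62 CPM at 60 min. STZ (AT1G27730), a zinc finger factor, had 26.5 and 27.7 CPM at 30 min and 14.3 and 25.1 CPM at 60 min, a log2 fold change of -0.46 ± 0.33 (SE). The exception that stood higher was AZF2 (AT3G19580), a zinc finger repressor, with 1.86 and 1.30 CPM at 30 min and 2.71 and 3.79 CPM at 60 min. SPX1 (AT5G20150), a phosphate sensor gene outside the list and named after its values were seen, had 2.35 and 2.07, then 19.0 and 11.2, then 4.92 and 7.10 CPM at the 3 times.

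Jasmonate genes differed between the 60 min libraries. Of 21 tested, 6 stood higher at an unadjusted p under 0.05 and 0 lower, beside 3.83% and 3.78% of all genes, and the median log2 fold change was 0.35. The summed level was 302 and 209 CPM at 0 min, 312 and 283 CPM at 30 min, and 285 CPM in replicate 1 but 406 CPM in replicate 3 at 60 min. Without 60 min replicate 3 the median was -0.16, and without 60 min replicate 1 it was 0.78. Without replicate 2 or 3 at 30 min it was 0.68 and 0.36.

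JAZ7 (AT2G34600), a jasmonate repressor gene that jasmonate itself induces, had 0 and 2 counts at 30 min (0 and 0.199 CPM) and 4 and 42 counts at 60 min (0.252 and 2.95 CPM). The ratio of 60 to 30 min was 15.5 with an exact 95% Clopper-Pearson interval of 4.05 to 132 that covers counting error only. CYP94C1 (AT2G27690), which inactivates the hormone, had 1 and 2 counts at 30 min and 4 and 29 counts at 60 min, a ratio of 7.41 with an interval of 2.32 to 37.7. OPR3 (AT2G06050), a synthesis enzyme, had 5.19 and 5.08 CPM at 30 min and 6.12 and 11.0 CPM at 60 min. The repressors JAZ2 (AT1G74950) and JAZ9 (AT1G70700) had 3.62 and 3.59 CPM and 43.0 and 38.4 CPM at 30 min, against 5.18 and 8.57 CPM and 48.0 and 76.1 CPM at 60 min. For these 5 genes the excess was larger in replicate 3 than in replicate 1. LOX2 (AT3G45140), a chloroplast lipoxygenase that starts jasmonate synthesis, had 35.3 and 21.8 CPM at 0 min, 32.3 and 24.0 CPM at 30 min and 52.8 and 43.0 CPM at 60 min, and was higher in replicate 1.

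The same library led in the heat shock list. Of 13 tested, 1 stood higher, HSP17.6II (AT5G12020), a small heat shock protein gene with 0.490 and 0.0996 CPM at 30 min and 1.39 and 2.18 CPM at 60 min, and 0 lower. The summed level of the list was 64.3 and 58.4 CPM at 30 min and 41.7 and 106 CPM at 60 min, so the 30 min libraries lay between the 60 min ones. The list's median of 0.35 was 0.74 without 60 min replicate 1 and -0.47 without 60 min replicate 3. The 12 genes of touch and calcium had 0 members on either side, and their sum was 176 and 227 CPM at 30 min and 115 and 206 CPM at 60 min. The median of the touch and calcium list, -0.40, was 0.05 without 60 min replicate 1 and -0.79 without 60 min replicate 3. Of 8 abscisic acid genes, 1 stood higher, RD26 (AT4G27410), a NAC factor gene with 0.969 and 2.17 CPM at 0 min, 4.21 and 3.09 CPM at 30 min and 5.74 and 11.7 CPM at 60 min. The median of this list was -0.17, with -0.39 without 60 min replicate 3 and 0.09 without 60 min replicate 1. Of 11 salicylate and immunity genes, PR2 (AT3G57260), a glucanase, stood higher and SARD1 (AT1G73805), a regulator of salicylate synthesis, lower. PR2 had 0.0979 and 0.598 CPM at 30 min and 1.26 and 0.984 CPM at 60 min, and SARD1 7.64 and 6.88 CPM and 4.17 and 4.64 CPM. Of 9 nitrate and sulfate genes 0 stood on either side, with a median of 0.34. Which property of the 60 min libraries goes with these stress genes was not tested.

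**Figure D4:**
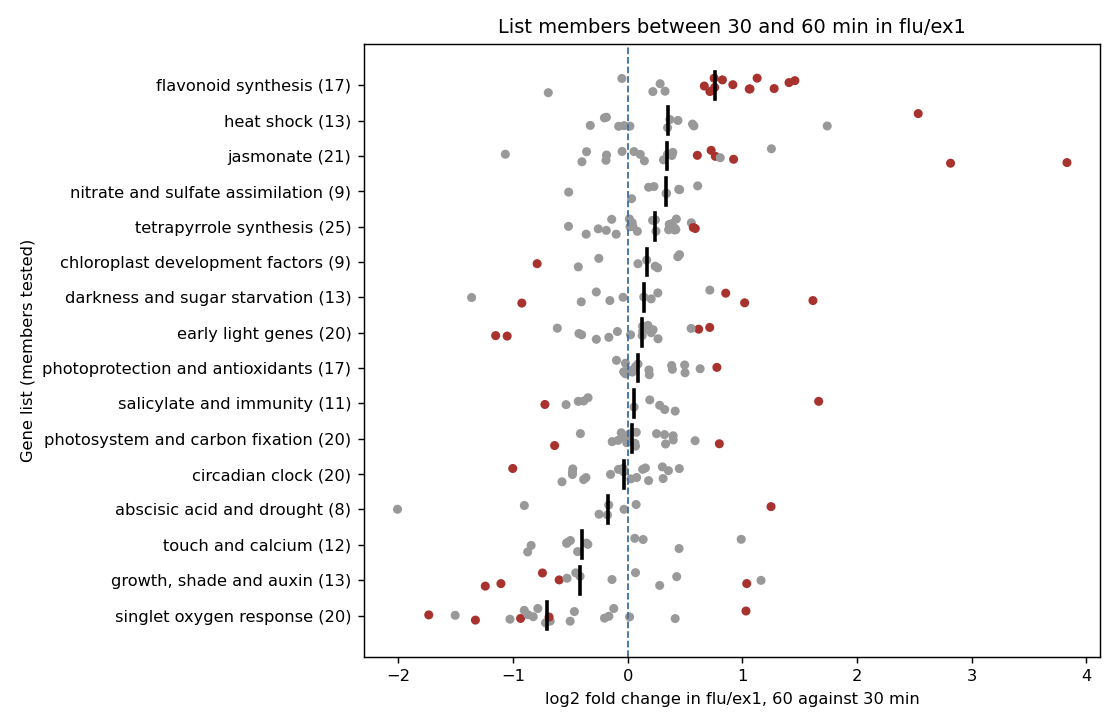
Log2 fold change of 60 against 30 min in flu/ex1 (x axis) for each tested member of 16 gene lists (y axis, number tested in brackets), with members at an unadjusted p under 0.05 in red, list medians as black bars and the median of all genes, 0.0067, as a dashed line. The flavonoid median lies highest at 0.76 and that of the singlet oxygen response lowest at -0.70.

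**Figure D5:**
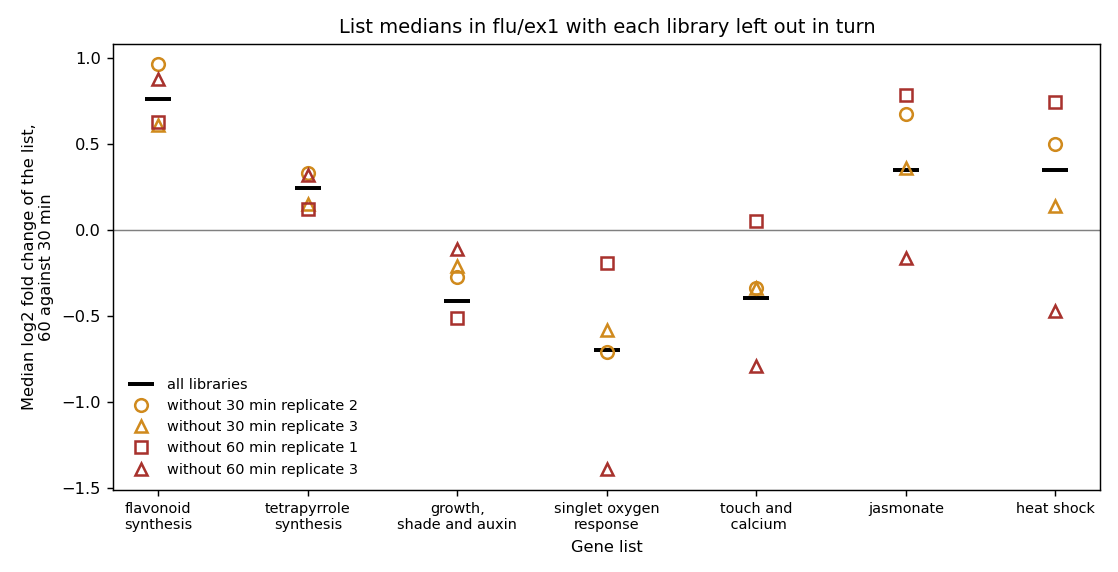
Median log2 fold change of 60 against 30 min (y axis) for 7 gene lists (x axis) with all libraries (bars) and with each 30 or 60 min library of flu/ex1 left out (symbols). The flavonoid median stays between 0.61 and 0.96, while the jasmonate median runs from -0.16 without 60 min replicate 3 to 0.78 without 60 min replicate 1.

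The same step was also read in flu/ex1/ydl1, where 97 genes (0.543%) were called, 96 higher and 1 lower. The difference of the steps was tested as an interaction. Here 0 of 17879 genes (0%) had an edgeR adjusted p under 0.05, 1087 (6.08%) had an unadjusted p under 0.05, and DESeq2 called 31. Without flu/ex1 60 min replicate 3, edgeR called 46, and without flu/ex1/ydl1 60 min replicate 1 it called 6. The 5 with the smallest p each had an adjusted p of 0.249. ATCTH, as above, differed by 2.34 ± 0.45 log2 units (SE), since in flu/ex1/ydl1 it had 5.65 and 8.36 CPM at 30 min and 5.18 and 7.61 CPM at 60 min. NAC032 (AT1G77450), a stress-related transcription factor gene, had 15.1 and 7.67 CPM at 30 min and 3.28 and 7.10 CPM at 60 min in flu/ex1. In flu/ex1/ydl1 it had 25.6 and 21.6 CPM at 30 min and 58.4 and 64.2 CPM at 60 min. PP2-B14 (AT1G56250), an F-box gene, had 7 and 20 counts at 30 min and 2 and 1 counts at 60 min in flu/ex1, a ratio of 30 to 60 min of 13.4 with an exact 95% interval of 4.11 to 68.9 for counting error. In flu/ex1/ydl1 it had 14.4 and 22.7 CPM and then 30.2 and 47.8 CPM. The other 2 of the 5, AT5G53750 and the phosphatase gene PFA-DSP3 (AT3G02800), differed by -2.33 ± 0.45 and -2.55 ± 0.49 log2 units (SE).

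Read against all genes, the jasmonate list had the largest share of members at an unadjusted p under 0.05 for the difference between genotypes. The flu/ex1 medians of the jasmonate, heat shock and singlet oxygen lists turn on 1 library. Without 60 min replicate 3 they were -0.16, -0.47 and -1.39, and without 60 min replicate 1 they were 0.78, 0.74 and -0.19. At an unadjusted p under 0.05, 17 of 21 jasmonate genes were higher at 60 min in flu/ex1/ydl1, where 5.6% of all genes were. An edgeR adjusted p under 0.05 was reached by 8 of the 21, beside 0.543% of all genes. The median was 1.82 against 0.35 in flu/ex1. The test of the difference gave an unadjusted p under 0.05 for 12 of the 21, beside 6.08% of all genes. OPR3 had 8.54 and 8.95 CPM at 30 min and 50.6 and 44.9 CPM at 60 min in flu/ex1/ydl1, a difference between the steps of -1.72 ± 0.42 log2 units (SE, unadjusted p = 0.000739, edgeR adjusted p = 0.348). In the heat shock list 11 of 13 members were higher in flu/ex1/ydl1 at an unadjusted p under 0.05, with a median of 1.73 against 0.35. For the difference 5 of these 13 had an unadjusted p under 0.05, beside 6.08% of all genes. For the singlet oxygen list the median was 0.64 in flu/ex1/ydl1 against -0.70. An unadjusted p under 0.05 for the difference was found for 7 of its 20 members, beside the same 6.08%. CNI1 was among them, at -1.72 ± 0.44 log2 units (SE, edgeR adjusted p = 0.358). The flavonoid median was 0.22 against 0.76, and 0 of its 17 members had an unadjusted p under 0.05 in the late step of flu/ex1/ydl1. For the difference 3 did, beside 6.08% of all genes. They were DFR, TT7 and PAL2 (differences of 1.58, 1.93 and 0.79 log2 units, edgeR adjusted p from 0.471 to 0.804).

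Genes called in flu/ex1/ydl1 were then looked up in flu/ex1, whose libraries took no part in the folds that chose them, although all 12 libraries share 1 estimate of the spread. Of the 96 genes higher at 60 than at 30 min there, 77 (80.2%) had a log2 fold change above 0 in flu/ex1, beside 50.7% of all genes, and 23 stood higher at an unadjusted p under 0.05. Their median was 0.47 in flu/ex1 and 2.36 in flu/ex1/ydl1. The share above 0 was 39.6% without 60 min replicate 3, beside 49.5% of all genes, with a median of -0.07. Without 60 min replicate 1 it was 89.6% beside 49.6%, with a median of 0.87. Without 30 min replicate 3 it was 70.8% beside 51.4%, with a median of 0.37. Of the 857 genes higher at 30 than at 0 min in flu/ex1/ydl1, 575 (67.1%) had a log2 fold change below 0 in the late step of flu/ex1, beside 49.3% of all genes, and 112 stood lower at an unadjusted p under 0.05 (13.1% beside 3.78%). Without 60 min replicate 1, 54.8% lay below 0, beside 50.4% of all genes, with a median of -0.07. Without 60 min replicate 3 the share was 74.2% beside 50.5%, with a median of -0.44. Without 30 min replicate 3 it was 60.8% beside 48.6%, with a median of -0.15.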

How the data were processed

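The deposited files hold raw counts per locus, which the authors made with Trimmomatic, FastQC, TopHat2 2.1.1 and featureCounts on TAIR10, per the submitters' processing notes. Whether strand was used and how reads with several matches were handled is not given in the sources used here. RNA was total RNA isolated with Trizol, per the labels' protocols. Each of the 12 files lists 36917 loci, and gene names were matched for 36632 of them.

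Libraries were grouped by genotype and the time in the file name, 2 in each of 6 groups. Low genes were dropped by filterByExpr (minimum count 10, total 15) and the rest scaled by TMM and tested with edgeR 4.0.16's quasi-likelihood F test in R 4.3.3, all 12 libraries in 1 fit. Adjustment over 17879 genes used the Benjamini-Hochberg method, with a threshold of 0.05. SE is the fold change over the root of F. CPM include plastid loci. Alternatives were the labels' times, DESeq2 1.42.0 and its size factors, no filter, nuclear loci only, fewer libraries, a replicate block and each library left out.

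The members and the 18 gene lists were chosen with earlier results of these data known. The text names FLU, EX1 and EX2, the 10 smallest p, up to 4 members of each list by p and 5 genes by p where the genotypes were compared. Chosen after their values were seen were 4CL1, AT1G06000, RHM1, AT3G59940, BBX14, BBX15, BBX32, SPX1, CYP79F1, CYP83B1, EXPA1, AGP17, CPD, AZF2, SAUR15, OPR3, JAZ9, BAP1, STZ, ASN1, HY5, HEMA1 and the flavonoid members beyond the first 4. The replicate numbers shared by the groups compared do not pair the libraries, since only number 3 occurs in both. Totals per library ran from 7859611 to 11591060 counts, and intervals cover counting error only.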

Additional observations from a re-analysis of the deposited data

How the results depend on the processing

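The count of 0 genes called moved under some alternatives. DESeq2 called 24 (11 higher, 13 lower) of the 4240 genes to which it gave an adjusted p. Without a filter on low counts, 72 of 31165 were called (35 and 37). The count was 2 among only the 4 libraries compared (1 and 1) and 1 with nuclear loci only (higher). It was also 1 (higher) with the file-name form, that is its prefix, as a block, an alternative chosen after seeing the data. It stayed at 0 with the labels' times, DESeq2 size factors, only the 6 flu/ex1 libraries and the replicate block. With each library left out it ran from 0 to 2, higher and lower genes from 0 to 1 each. For the difference between genotypes DESeq2 called 31, the fit without a filter 120, and fits that leave out a library 0 to 46. The cause was not tested. The replicate block left 0 calls; the groups share only number 3, so it was read as no pairing, and FLU (0.0067) and EX1 (-0.22) changed sign under it. Under the labels' times, 177 genes had an unadjusted p under 0.05 against 1360, the flavonoid, jasmonate, singlet oxygen and growth lists had 0 such members, and these log2 fold changes reversed: FLU 0.15, EX1 -0.073, ATCTH -0.35, GASA6 0.18, AT1G23390 -1.09, HB24 0.26, PGSIP7 0.73, TPS8 -0.84, FUM2 -0.58, RHA2B 0.77, BBX30 0.91, BBX31 1.70, BBX32 1.37, BBX14 -0.81, BBX15 -0.27, HY5 0.83, MYB12 1.41, MYB111 0.20, AT3G59940 -0.13, RVE2 0.0637, LNK3 0.53, LUX 0.66, LHCB7 0.64, CGA1 0.73, GATA21 0.41, EXPA1 0.0204, PIF3 -0.23, TPS11 -0.43, TPS9 -0.43, DIN9 0.60, CNI1 0.67, ZAT11 0.32, ERF4 0.44, MPK3 0.27, AZF2 -0.38, BAP1 0.48, STZ 0.44, JAZ7 -3.36, CYP94C1 -2.82, JAZ2 -0.45, OPR3 -0.32, JAZ9 -0.35, HSP17.6II -0.49, RD26 -0.49, SPX1 1.34, SARD1 0.15, PP2-B14 1.99, NAC032 1.01, AT5G53750 0.0036, PFA-DSP3 0.45, AOX1A -0.48. For the difference between genotypes these reversed: ATCTH -0.15, PP2-B14 1.88, NAC032 0.76, PFA-DSP3 0.0913. MYB12 reversed with the file-name form as a block (0.0123), without 30 min replicate 2 (1.31) and without 60 min replicate 3 (0.16), in a range from -0.73 to 1.31 with each library left out, and AOX1A without 60 min replicate 3, in a range from -0.0761 to 1.12. Of 94 genes followed, 92 kept their sign with each library left out. Most of them were chosen by p or after their values were seen in these same libraries. The kept signs are therefore no independent check. With 2 libraries a group, 1 library can decide a value.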
